A study of Homo sapiens with 6 samples.

Results

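Ribosomal protein pseudogenes are copies of ribosomal protein messenger RNAs, or of their genes, that lie elsewhere in the genome and carry the parent's name with a P and a number. They were chosen by a symbol of that form (an RPL or RPS name, then P and a number) and by a mean level over the 6 libraries of at least 1 CPM, the count scaled to a common library total. By that rule 70 genes were members, out of 457 with such a symbol in the count tables and out of 28979 genes in all. The level that chose the members is described below without a test. The comparison of the groups of libraries was not part of the rule.

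The libraries were made from messenger RNA of MDA-MB-231, an established human breast cancer cell line. There were 3 libraries labelled Con and 3 labelled Ang. According to the series' design text, the cells had been given vesicles (exosomes) shed by either healthy or hypertrophic heart muscle cells, and the title names AC16, a human cardiomyocyte line. The labels do not define Con and Ang, give no dose or time, and do not say that libraries came from separate cultures, so the p-values measure only how these libraries varied, and that variation may be technical. The cells of all 6 libraries carried the same labels for line and protocol.

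Most ribosomal protein pseudogenes are processed pseudogenes. They arise when a ribosomal protein messenger RNA is reverse transcribed and inserted by the machinery of LINE-1 elements, so they lack introns, often end in a poly(A) tract and have no promoter of their own. The parent genes are few, short and very strongly transcribed in growing cells, and the family of their copies is among the largest pseudogene families of the human genome. Reads counted at such a copy can come from its own transcript, from a longer transcript that runs through it, or from the parent messenger RNA placed at the copy, and near-identical copies make that assignment uncertain.

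The members differed widely in how much their sequence resembled the parent, which sets how far their counts can be told from those of other genes. A few stretches show the range. Each is a part of the pseudogene, 5′ to 3′ on its own strand, above the matching part of the parent's coding sequence, read from the transcripts of GENCODE release 29 on GRCh38. Capitals mark the positions where the pair differs, and letters in lower case are shared.
RPS2P5: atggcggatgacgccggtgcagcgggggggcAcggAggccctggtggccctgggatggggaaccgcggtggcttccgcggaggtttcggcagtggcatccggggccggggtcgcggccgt
RPS2: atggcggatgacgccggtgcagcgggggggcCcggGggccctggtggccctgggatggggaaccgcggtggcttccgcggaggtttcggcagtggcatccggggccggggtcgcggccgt
RPS12P20: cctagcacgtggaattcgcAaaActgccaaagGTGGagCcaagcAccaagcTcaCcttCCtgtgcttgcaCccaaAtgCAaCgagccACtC
RPS12: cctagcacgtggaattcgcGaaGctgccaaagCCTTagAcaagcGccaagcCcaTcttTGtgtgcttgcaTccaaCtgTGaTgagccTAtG
RPL37P12: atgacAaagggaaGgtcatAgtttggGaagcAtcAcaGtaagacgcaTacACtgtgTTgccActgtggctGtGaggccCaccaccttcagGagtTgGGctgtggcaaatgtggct
RPL37: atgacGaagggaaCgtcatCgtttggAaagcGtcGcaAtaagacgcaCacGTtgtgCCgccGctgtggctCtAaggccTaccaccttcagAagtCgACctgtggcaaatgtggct
RPL22P24: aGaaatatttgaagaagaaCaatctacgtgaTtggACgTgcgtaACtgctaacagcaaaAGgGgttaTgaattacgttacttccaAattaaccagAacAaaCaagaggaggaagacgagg
RPL22: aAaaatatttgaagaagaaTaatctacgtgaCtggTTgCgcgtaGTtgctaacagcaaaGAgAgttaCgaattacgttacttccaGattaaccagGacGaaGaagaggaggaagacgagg
RPS28P7: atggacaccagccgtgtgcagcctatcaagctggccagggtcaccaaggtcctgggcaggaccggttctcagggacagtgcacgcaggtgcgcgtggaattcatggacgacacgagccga
RPS28: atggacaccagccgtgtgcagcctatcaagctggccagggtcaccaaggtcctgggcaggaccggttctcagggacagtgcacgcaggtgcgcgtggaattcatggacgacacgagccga

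The RPS2P5 stretch (chr12:118246084-118246203, plus strand) is shown because RPS2P5 was the most abundant member, and it differed from RPS2 at 2 of 120 bases. RPS12P20 (chr11:72708264-72708354, plus strand) and RPL37P12 (chr2:109552537-109552651, plus strand) are shown because they had the smallest p-values between the groups. They differed from their parents at 20 of 91 and 20 of 115 bases. RPL22P24 (chr1:185171339-185171458, minus strand) had the smallest p-value among members with a higher value in Ang and differed from RPL22 at 16 of 120 bases. RPS28P7 (chr11:82689559-82689678, plus strand) differed from RPS28 at 0 of 120 bases and stands for the copies that no base separates from the parent.

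In all, 69 of the 70 members aligned with a parent transcript. Identities, taken over the aligned part only, ran from 74.0% to 100% with a median of 92.5%. That part was small in some members, at 3.6% of the transcript for RPL32P3, 17.4% for RPL23AP82, 25% for RPL23AP7 and 29.2% for RPS18P9. The median was 90.5% for the 457 symbols in the count tables and 88.7% for the 1495 annotated ones. RPL7P57 did not align with RPL7. The share of annotated pseudogenes that reached the level of the rule was 2.12% of 472 with an identity under 85%, 4.44% of 383 from 85% to under 90%, 3.27% of 428 from 90% to under 95%, 10.3% of 136 from 95% to under 98% and 20.3% of 69 at 98% or more. The shares were thus largest at the highest identities of the aligned part, without a steady rise below an identity of 95%.

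Each member was also cut into overlapping windows of 50 bases. In 30 members no window occurred in the parent's transcripts, and in 19 none occurred in the transcripts of any other gene in the annotation on either strand, RPL37P12, RPS12P20, RPL22P24 and RPL36AP30 among them. In 8 members every window occurred in another gene. Of these, 5 lay wholly under exons of a gene on the other strand, with at most 1.5% of windows in the parent. The other 3, RPL36AP37, RPS28P7 and RPL21P16, were identical to the parent transcript over their full length. RPL36AP37 held 79 counts over the 6 libraries, RPS28P7 68 and RPL21P16 36. As windows of this length do not separate these copies from RPL36A, RPS28 and RPL21, which gene their reads came from is uncertain. The doubt is not limited to these 3. In 29 of the 70 members at least 50% of windows occurred in another gene, a gene on the other strand included. RPS2P5 had 57.1% of its windows in RPS2, RPL23AP42 81.3% in RPL23A and RPS18P5 47.6% in RPS18. Part of their counts is uncertain in the same way. No source used here gives the read length or the treatment of reads with several placements.

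The members lay mostly opposite to other genes. Of the 70, 50 (71.4%) lay under an annotated gene on the other strand and 7 under a gene on their own strand, 2 of them under both, and 15 lay outside genes. Among all 1495 annotated ribosomal protein pseudogenes, 34.4% lay under a gene on the other strand and 21.8% under a gene on their own strand. Exons of another gene on the other strand covered at least part of 17 members, and exons on the same strand covered 0.

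The split by position was steep. Of 21 annotated ribosomal protein pseudogenes with at least 50% of their bases under exons on the other strand, 9 reached 1 CPM (42.9%), while of 20 with at least 50% under exons on their own strand 0 did. However, 0 of those 20 were in the count tables, so no level could be read for them. In introns, 31 of 421 pseudogenes on the other strand from the host gene reached it (7.36%), against 5 of 248 on the host's strand (2.02%). Outside genes it was 15 of 706 (2.12%), and with part of the sequence under an exon 8 of 44 (18.2%). The other processed pseudogenes of the annotation were those with a symbol outside the rule. Ribosomal protein copies named in another form can be among them. The profile of these other pseudogenes was nearly the same. They reached 1 CPM in 40.0% of 150 under exons on the other strand, 0 of 121 under exons on the same strand, 7.73% of 2109 in introns on the other strand and 1.6% of 1249 in introns on the same strand. Of those 121, only 7 were in the count tables. Since levels chose the members, these shares are a description, and no test was made of them.

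**Figure D1:**
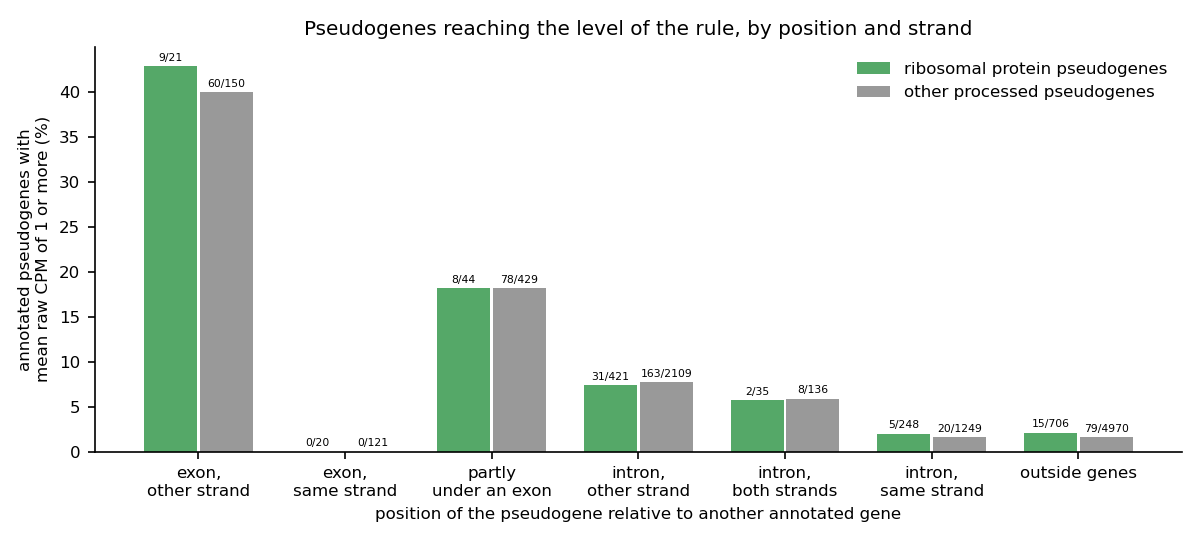
The bars give the percentage of annotated pseudogenes with a mean raw CPM of 1 or more (y axis) in 7 classes of position relative to another annotated gene (x axis), for ribosomal protein pseudogenes (green) and all other processed pseudogenes (grey), with the numbers above the bars. In both sets the share was largest under exons on the other strand (42.9% and 40.0%) and 0 under exons on the same strand. In that last class 0 of 20 and 7 of 121 were in the count tables.

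The same split stood in each library. In Con replicates 1 to 3, the 217 pseudogenes in introns on the other strand summed to 207, 197 and 236 CPM, and the 47 on the host's strand to 22.7, 19.1 and 13.7 CPM. In Ang replicates 1 to 3 the sums were 194, 213 and 176 CPM against 14.6, 19.9 and 15.3 CPM. The ratio of the sums ran from 9.11 in Con replicate 1 to 17.3 in Con replicate 3, and the Ang libraries lay between them at 10.7 to 13.3. These sums cover unequal numbers of genes, 217 against 47, so their ratio is not a difference per gene. RPS2P5 alone held 44.0 of the 204 CPM on the other strand in the mean of the 6 libraries. Over 240 pairs of a non-coding gene lying under exons of a coding gene on the other strand, the non-coding gene held more counts per base in 90% of pairs, with a median ratio of 33.4. Each pair had at least 90% of the non-coding gene under exons of 1 coding gene with at least 300 counts. Only non-coding genes in the count tables could enter, so the ratio leaves out those absent from them. The library medians of that ratio were lowest in Con replicate 2 (25.1) and highest in Con replicate 3 (42.7). The protocol names no step that keeps strand, and no source used here gives the strand setting of the counting. How much of the counts of a pseudogene opposite to a gene is its own RNA is therefore uncertain, and the same holds for the parents.

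The hosts give the positions of the leading members. RPS2P5 (chromosome 12, 118246084 to 118246962) lies in an intron of TAOK3, a protein kinase gene, on the other strand. RPS18P5 lies opposite to an intron of PCNP, RPL23AP64 of CENATAC, RPL37P12 of SEPTIN10, RPS12P20 of ARAP1 and RPL22P24 of SWT1. RPS9P1 (chromosome 21, 36132450 to 36133032) lies wholly under exons of CBR3-AS1 on the other strand, and RPL35P2 has 85.7% of its bases under an exon of ENSG00000225339. RPL12P14 (chromosome 1, 15792796 to 15793285), the second most abundant, lies outside genes, 6202 bases from FBLIM1. RPL36AP37 was the most abundant of the 5 in introns of a gene on their own strand, in PLEKHA7, and RPL18AP3 lies in introns of TXNRD1 on its own strand and of ENSG00000257732 on the other.

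The levels of the members were low and uneven. The median of the mean raw CPM was 2.37, 29 members were under 2 CPM, 7 were at 10 CPM or more, and the 10 most abundant held 55.6% of the members' summed level. Copies of large subunit genes made up 45 members and copies of small subunit genes 25, from 38 parents. RPL23A, whose protein sits beside the exit of the peptide tunnel, had 5 members of 91 annotated copies, summing to 42.9 CPM. RPL21 had 4 of 133 (6.14 CPM), RPL7A 4 of 80 (12.4 CPM) and RPS2 4 of 25 (50.5 CPM, 44.0 of them in RPS2P5). Members of 1 parent share its sequence and are not independent of each other.

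RPS2P5, a copy of the gene for a small subunit protein near the messenger RNA entry, had 204, 282 and 106 counts in the Con libraries, given in the order of replicates 1 to 3 as for all counts that follow, and 177, 216 and 118 in the Ang libraries. Scaled by edgeR's trimmed mean of M values (TMM), these were 41.4 ± 7.32 CPM for Con and 46.8 ± 11.1 CPM for Ang (mean ± SD, n = 3). RPL12P14, a copy of a gene for a protein at the base of the ribosomal stalk, had 147, 155 and 133 counts in Con and 89, 113 and 109 in Ang, which came to 33.0 ± 8.0 and 28.7 ± 2.69 CPM. RPS18P9, a transcribed pseudogene partly under KATNA1, had 150, 133 and 83 counts in Con and 82, 116 and 142 in Ang, or 26.8 ± 4.63 and 31.4 ± 8.69 CPM. In all 3 the groups overlapped on the scaled level. Only 29.2% of the RPS18P9 transcript aligned with RPS18, so most of its counted length is not ribosomal protein sequence.

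RPL23AP64 had 113, 80 and 83 counts in Con and 52, 65 and 74 in Ang, with overlapping scaled levels of 21.2 ± 6.71 and 17.7 ± 3.25 CPM. RPS9P1 had 60, 44 and 37 counts in Con and 47, 41 and 43 in Ang. RPL35P2 was the steadiest of these, with 9.21 ± 0.81 and 9.88 ± 1.57 CPM. RPL23AP42, 99.6% identical to RPL23A, had 63, 36 and 40 counts in Con and 26, 21 and 33 in Ang, and again the groups overlapped once scaled (10.7 ± 3.98 and 7.49 ± 2.12 CPM).

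Some members varied strongly between libraries of 1 group. RPL9P29, chosen after its values were seen, had 36, 4 and 24 counts in Con and 5, 28 and 24 in Ang, so each group held 1 library at 4 or 5 counts beside others at 24 to 36. RPS11P5, also chosen after its values were seen, had 44, 47 and 40 counts in Con and 21, 49 and 6 in Ang. A count of 0 allows up to 3 counts, which is 0.552 to 0.890 CPM in these libraries for counting error only, and 13 members had a 0 in at least 1 library.

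**Figure D2:**
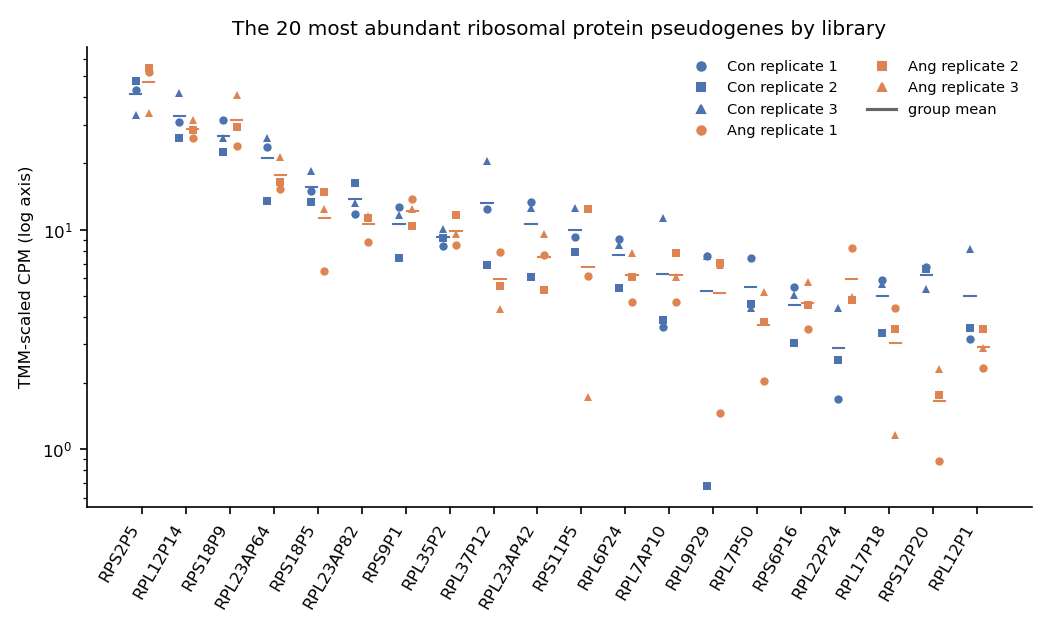
TMM-scaled CPM (y axis, log scale) of the 20 members with the highest mean raw CPM (x axis) in each Con (blue) and Ang (orange) library, with replicates as circles, squares and triangles and group means as short lines. Points of both groups overlap for most members, while for RPS12P20 the 3 Ang libraries lie below the 3 Con libraries.

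At the level of the rule, RPS10P5, RPL17P9 and RPL13AP5 were the last inside, with mean raw CPM of 1.06, 1.05 and 1.04, and RPL7P26, RPL12P15 and RPL35AP5 the first outside, at 0.995, 0.994 and 0.981. All 6 had between 0 and 11 counts in any library.

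Against the parent genes the members were minor. Per base of annotated exon, with 0.5 added to each count, the median ratio of member to parent counts was 0.0546, with quartiles of 0.0217 and 0.180, and 43 of 70 members (61.4%) were under 0.1. The exon union of a parent is often far longer than its messenger RNA, and with the length of the parent transcript that aligned best the median ratio was 0.0160. That transcript was taken from all annotated ones and can itself be long. It was the longest one for RPL23A (1562 bases) and RPL37 (7686 bases), so these ratios are not fully comparable between parents. RPS2P5 stood at 0.307 of its parent by exon union and 0.125 by the best aligned transcript, and RPL12P14 at 0.323 and 0.0833, so their order turned. RPL23AP64 stood at 0.221 and 0.122, and RPS18P5 at 0.111 and 0.0360. The lowest ratio was that of RPL23AP7, a transcribed pseudogene of which 25% aligned with RPL23A, at 0.00346 by exon union. It had 1, 0 and 6 counts in Con and 4, 11 and 11 in Ang.

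By exon union, more counts per base than the parent were found in 7 members, and with the best aligned parent transcript in 5. Of these, 6 belonged to 3 parents whose exons are shared with a read-through gene on the same strand. RPL17P18 had the highest ratio, 12.9 by exon union and 4.15 by the best aligned transcript, and 99 counts over the 6 libraries, while RPL17 had 18 counts in Con and 14 in Ang. RPL36AP30 stood at 9.18 (2.11 by the best aligned transcript) and RPL36AP37 at 7.39 (1.70), with 70 and 64 counts for RPL36A in Con and Ang. RPS10P5 stood at 4.95 (1.35), with 18 and 5 counts for RPS10. These 3 parents had both low counts and a read-through overlap, and the part of the overlap in the ratios was not tested. Exons of other genes on the same strand covered 32.7% of RPL17, 8.4% of RPL36A and 39.4% of RPS10. Among other parents they covered 25.6% of RPS2, at 392 CPM, and 17.6% of RPL36, at 166 CPM. The remaining 1 was RPL22P24, at 1.68 with RPL22 at 431 and 339 counts. It had 0.744 of the parent's counts per base with the best aligned transcript. Of the exon bases of RPL22, 43.4% lay under ENSG00000285629 on the same strand, and 4.9% under its exons.

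**Figure D3:**
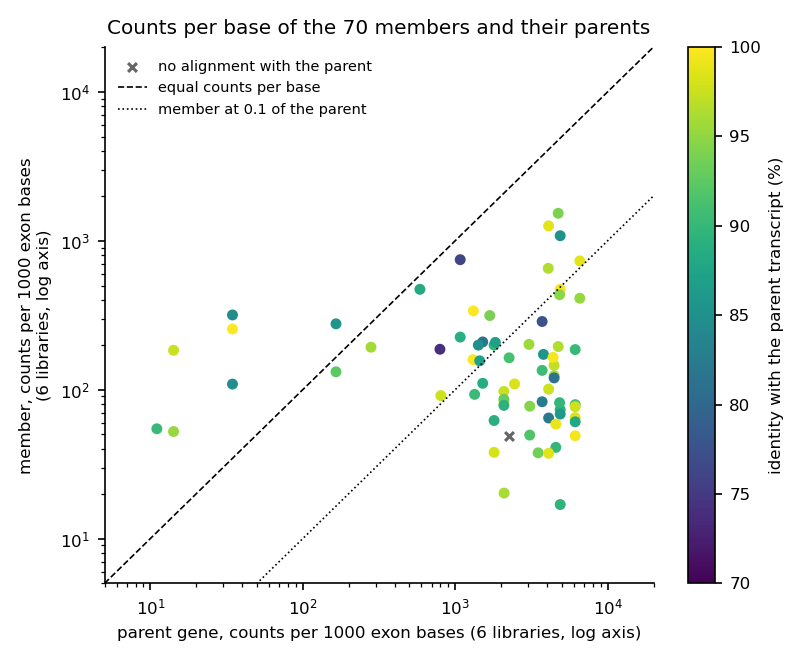
Counts per kilobase of exon over the 6 libraries for each of the 70 members (y axis, log scale) against its parent gene (x axis, log scale), coloured by percent identity with the parent transcript; the dashed line marks equal counts per base and the dotted line a member at 0.1 of its parent. Most points (43) lie below the dotted line, and the 7 above the dashed line by exon union are copies of RPL17, RPL36A, RPS10 and RPL22.

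Ang was compared with Con by edgeR's quasi-likelihood test over 14547 genes that passed its filter on low counts. No member differed past the threshold of 0.05 on the adjusted p. The filter kept 31 members, with 44 to 1103 counts in all. With Benjamini-Hochberg adjustment over all genes, edgeR called 0 of them, against a background of 0% of genes, and the smallest adjusted p was 0.999. At an unadjusted p under 0.05 there were 2 members, both lower in Ang, against 3.4% of all tested genes in either direction, 1.98% lower and 1.42% higher in Ang. DESeq2 and limma-voom each called 0 members as well and counted 2 at an unadjusted p under 0.05. The parents gave 0 calls among 36 tested and 0 at an unadjusted p under 0.05.

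RPS12P20 (chromosome 11, 72708186 to 72708565) had the smallest p. Its parent encodes a small subunit protein. It had 32, 39 and 17 counts in the Con libraries against 3, 7 and 8 in the Ang libraries, and the groups did not overlap. Scaled, Con stood at 6.23 ± 0.77 CPM and Ang at 1.65 ± 0.72 CPM. The log2 fold change was -1.90 ± 0.66 (SE) with an unadjusted p of 0.00452 and an edgeR adjusted p of 0.999. RPS12 itself had 1530 counts in Con and 1318 in Ang and a log2 fold change of 0.18. With 0.5 added to each count, RPS12P20 stood at 6.30%, 5.17% and 6.93% of RPS12 in the Con libraries, and 0.99%, 1.32% and 2.13% in the Ang libraries.

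RPL37P12 (chromosome 2, 109552536 to 109552846) came next. Its parent encodes a zinc-binding large subunit protein. It had 59, 41 and 65 counts in Con and 27, 22 and 15 in Ang. The scaled levels were 13.3 ± 6.79 and 5.93 ± 1.83 CPM, the log2 fold change was -1.13 ± 0.41, and the groups overlapped, with Con replicate 2 below Ang replicate 1. Leaving out 1 library gave values from -1.45 (without Con replicate 2) to -0.71 (without Con replicate 3). Without Con replicate 2 its edgeR adjusted p was 0.0999, still above the threshold. In that fit 1633 of all 14867 tested genes had an unadjusted p under 0.05. RPL37 had a log2 fold change of 0.06.

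RPL22P24 (chromosome 1, 185171335 to 185171710), a copy of the gene for an RNA-binding large subunit protein, was the largest on the higher side. It had 8, 15 and 14 counts in Con and 28, 19 and 17 in Ang. The scaled levels of 2.88 ± 1.4 and 5.97 ± 1.94 CPM did not overlap, with a log2 fold change of 1.08 ± 0.62 that did not pass the test, beside 0.01 for RPL22. RPL36AP30, in an intron of UBE3C on the other strand, had 13, 5 and 6 counts in Con and 10, 20 and 9 in Ang (0.97 ± 0.76). RPS18P5 had 71, 79 and 59 counts in Con and 22, 59 and 43 in Ang (-0.46 ± 0.34). RPL32P3, a transcribed pseudogene with 3.6% of its transcript aligned to RPL32, had 17, 33 and 12 counts in Con and 7, 10 and 9 in Ang, with groups that did not overlap and a log2 fold change of -0.85 ± 0.69.

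Among the 31 tested members the Ang libraries lay wholly on 1 side of the Con libraries in 4, which is 12.9% beside 8.16% of all tested genes (4.54% lower in Ang, 3.62% higher) and 26 of 229 (11.4%) other processed pseudogenes. These were RPS12P20, RPL32P3 and RPL23AP82 on the lower side and RPL22P24 on the higher. RPL23AP82, a transcribed pseudogene partly under RABL2B, had 13.8 ± 2.25 and 10.6 ± 1.53 CPM. Of the 39 members that the filter left out, with 25 to 66 counts each, 5 had groups apart. Of all 2766 genes that reached 1 CPM and that the filter left out, 9.69% had groups apart, 5.6% lower and 4.09% higher in Ang. RPL36P4 and RPS2P46 were lower in Ang and RPL5P30, RPS7P10 and RPL21P16 higher, all chosen after their values were seen. RPL36P4 had 10, 24 and 18 counts in Con and 5, 3 and 3 in Ang. RPL5P30 had 4, 7 and 3 counts in Con and 20, 7 and 25 in Ang.

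Taken by sign alone, the direction of the members depended on which were tested. Log2 fold changes were below 0 in 19 of the 31 tested members, with a median of -0.25, beside 50.8% and -0.01 for all tested genes. Without Con replicate 3 the median was -0.063. Fitted without the low-count filter, 35 of all 70 members were below 0, with a median of -0.0025. Among the 39 not tested, the group mean was lower in Ang for 16 and higher for 23. The parents had positive values in 28 of 36, with a median of 0.08 and a range of -0.16 to 0.24. In the wider list of 79 cytosolic ribosomal protein genes, 76 were tested, 0 were called or reached an unadjusted p under 0.05, and 59 were above 0 (median 0.09). The other processed pseudogenes of at least 1 CPM numbered 408, of which 229 were tested, 0 were called and 130 were below 0 (median -0.08).

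The counts left wide room for differences in single members. Tested members had a median SE of 0.59 on the log2 scale, and parents 0.17. The 95% confidence interval lay within 2-fold in both directions for 6 of 31 members, against 35 of 36 parents and 64.2% of all tested genes. For RPS2P5, with a log2 fold change of 0.17 ± 0.22, the interval ran from -0.26 to 0.60, and for RPL12P14 (-0.19 ± 0.25) from -0.68 to 0.30. For RPL36AP37 it ran from -1.05 to 1.74, and for RPL18AP3 from -1.77 to 1.0.

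**Figure D4:**
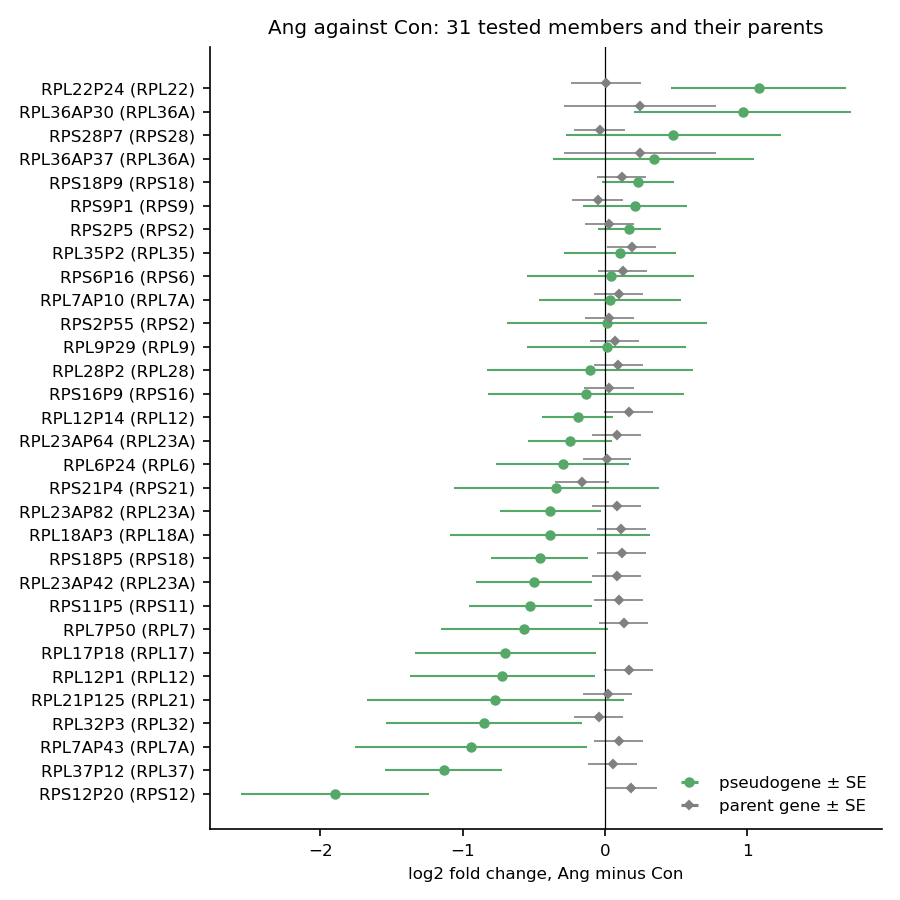
Log2 fold change of Ang against Con (x axis) with its SE for the 31 tested members (green circles, named on the y axis with the parent in brackets) and for the parent of each (grey diamonds); RPL17 was not tested. Members range from -1.90 to 1.08, while their tested parents lie between -0.16 and 0.24, and no value passed the edgeR threshold.

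Summed over the 70 members, the scaled level was 353, 296 and 408 CPM in the Con libraries against 297, 353 and 330 CPM in the Ang libraries. The groups overlapped, with means of 352 ± 56.1 and 326 ± 28.0 CPM. The 38 parents summed to 9639, 10956 and 8167 CPM in Con and 9899, 10450 and 10133 CPM in Ang, again with overlap. In bulk libraries, fewer cells with a transcript and less of it per cell cannot be told apart. Member counts were 3.67%, 2.70% and 4.99% of the parents' counts in Con and 3.0%, 3.38% and 3.25% in Ang. The lowest of these shares was in Con replicate 2 and the highest in Con replicate 3, which also had the lowest and the highest median ratio over the 240 strand pairs. The ratio of the intron sums was highest in Con replicate 3 too but lowest in Con replicate 1. The part of either ratio in the shares was not tested. Within Con the shares spread over a wider range than the whole Ang group.

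**Figure D5:**
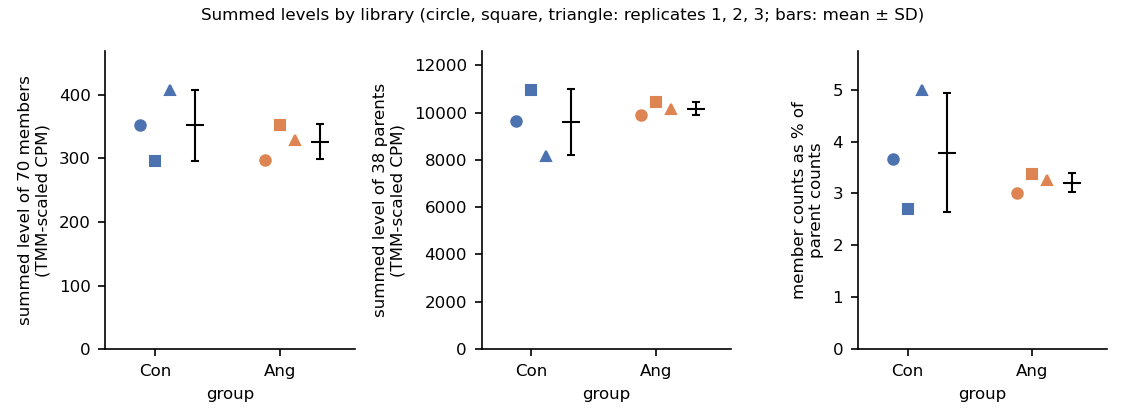
Left and middle, summed TMM-scaled CPM of the 70 members and of their 38 parents in each library (y axes) by group (x axis); right, member counts as a percentage of parent counts. Symbols are libraries and the bars beside them mean ± SD (n = 3); the Ang libraries lie within the range of the Con libraries in all 3 panels.

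As to the libraries as a whole, total counts ran from 3369212 to 5437190. The 8 listed markers of mesenchymal breast cancer cells were all present, from 56.9 CPM for ZEB1 to 980 CPM for VIM. Of 7 luminal or epithelial markers, 4 were at 1 CPM or more, with KRT8 highest at 971 CPM, and ESR1, PGR and CDH1 were under 1 CPM. Of 8 heart muscle markers, 5 had rows in the tables and NPPA, at 9.51 CPM, was the one above 1 CPM. Their sum was 7.18 to 19.2 CPM in Con and 7.34 to 13 CPM in Ang.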

How the data were processed

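Messenger RNA of MDA-MB-231 cells was selected on poly-T beads, primed at random and amplified in 15 PCR cycles, per the labels' protocols. The authors deposited raw, whole-number read counts per Ensembl gene for 6 libraries. HTSeq 0.9.1, DESeq 1.39.0 and build GRCh38 are named, per the submitters' processing notes. Aligner, annotation release and strand setting: not given in the sources used here.

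Of 28979 gene IDs, 28918 had a symbol in the supplied table of names and 28192 were in GENCODE 29, which gave positions, exons and sequences. Groups came from the titles. All genes were fitted with edgeR 4.0.16 in R 4.3.3 (filterByExpr, TMM, robust quasi-likelihood test, Benjamini-Hochberg). The SE is the log2 fold change over the root of F. CPM printed with SD is TMM scaled, and the rule used raw CPM. Parents are named by the symbol without P and number. Overlaps used bedtools 2.31.1 and identities blastn 2.17.0. The members and lists were chosen with earlier results of these data known.

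Named were the 10 most abundant members, the 6 with the smallest p, the most abundant of each position, 3 on each side of the level of the rule, the 4 parents with the most members, and the highest and lowest ratio. Alternatives were RLE scaling, other filters, DESeq2 1.42.0, limma-voom 3.58.1, a replicate block, other levels, other lengths and leaving out each library. The fit was tested on simulated counts. Total counts of 3369212 to 5437190 limit precision.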

Additional observations from a re-analysis of the deposited data

How the results depend on the processing

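Members called by DESeq2, limma-voom and edgeR with RLE scaling, without a filter on low counts, with a CPM filter (1 CPM or more in any 3 libraries), without any 1 library or for members free of exon overlap stayed at 0, and parents called stayed at 0 in each of these but the last, which was not run for them. As to pairing, deviations from the group means correlated at 0.037, 0.0675 and 0.0356 between same-numbered libraries. Between libraries with different numbers the values ran from -0.0697 to 0.0302. With 3 libraries per group, these values cannot tell whether the libraries were paired. The replicate block gave 0 members, 0 parents and a median of -0.21. The median log2 fold change of members, -0.25 at first, was -0.0025 with no filter and 0.010 with the CPM filter, fits that test more of the low members, and -0.334 to -0.063 leaving out 1 library (-0.063 without Con replicate 3, where the cause was not tested). Members at an unadjusted p under 0.05 numbered 2 to 6, given here with the share of all tested genes in brackets. There were 6 of 70 with no filter (2.85%) and 4 of 62 with the CPM filter (3.40%). The fits without Con replicate 1 and without Con replicate 3 gave 5 of 41 (2.73%) and 4 of 40 (3.66%). Those without Ang replicates 1, 2 and 3 gave 4 of 43 (2.83%), 6 of 39 (2.81%) and 3 of 43 (2.66%). Without Con replicate 2 the share was lower in members, at 3 of 39, than in all tested genes, at 1633 of 14867. The members themselves numbered 132 at 0.5 CPM, 41 at 2 CPM and 14 at 5 CPM, and 69 to 77 leaving out 1 library. Members in introns on the other strand numbered 61, 17 and 6 at those levels and 30 to 36 without 1 library. Those on the same strand numbered 7, 2 and 0, and 4 to 5. The median identity was 91.0% at 0.5 CPM, 91.2% at 2 CPM and 90.8% to 92.5% without 1 library. The cause of the moves in identity was not tested. The ratio to the parent per base, 0.0546, was 0.0160 with the best aligned transcript, chosen after seeing the data as were the alternatives for position and identity, 0.0354 with the longest transcript and 0.0429 without the read-through parents (also chosen after seeing the data). Leaving out 1 library gave 0.0477 to 0.0629. Of 203 alternative values of 17 named members, 198 kept direction and side of the threshold and 5 changed sign without a call. The 39 members left out by the low-count filter had 25 to 66 counts each.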
